A study of Mus musculus with 6 samples.

Results

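Respiratory complex I, the NADH dehydrogenase of the mitochondrial inner membrane, is described here through 42 genes, of 22180 genes tested in all. They were chosen by symbol (Nduf followed by a, b, c, s, v, ab or af and a number). That rule uses no measured values, but it was set with earlier results of these data known. Of these, 32 encode subunits of the complex, 8 encode Ndufaf assembly factors, and 2 (Ndufa4 and Ndufa4l2) share the name but were not counted as complex I subunits. Colorectal cancer cells had been placed in mice either in white adipose tissue (3 tumours) or in non-adipose tissue (3 tumours), and the tumours were taken at 1 to 1.5 cm3, with 3 mice in each group. Each tumour's total RNA was hybridised to its own Affymetrix whole-transcript array. The cell line, the mouse strain, sex and age, the adipose depot and the identity of the non-adipose site were not given in the sources used here. All values are log2 signals of a probe set, so a difference of 1 is a doubling of signal, and signals of different genes are not compared with each other.

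Complex I takes electrons from NADH, passes them through a flavin and a chain of iron-sulfur clusters to ubiquinone, and pumps protons across the inner membrane. Its L shape has a peripheral arm in the matrix, where NADH is oxidised and ubiquinone reduced, and a membrane arm that carries the pumps. Core subunits do the catalysis, accessory subunits surround and stabilise them, and assembly factors join the modules together and leave the finished enzyme. The complex feeds on the NADH of both sugar and fatty acid breakdown.

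The 6 arrays correlated across genes at 0.983 to 0.995, and no gene of the 22180 passed an adjusted p of 0.05 in limma, 0% in either direction, with 1.66% higher, 2.13% lower and 3.79% in either direction at an unadjusted p under 0.05. One array stood apart: white adipose replicate 1 had a mean signal of 9.40 over 6 measured skin epithelial markers, against 5.20 and 5.29 in the other white adipose arrays, while non-adipose arrays lay between 5.30 and 5.84. Skeletal muscle markers averaged 5.44 to 5.54 in the white adipose arrays and 5.42 to 6.63 in the non-adipose arrays, where replicate 3 was highest, and 13 of 14 had a lower mean in white adipose tumours. Adipocyte markers averaged 5.66 to 6.08 in white adipose and 5.77 to 5.93 in non-adipose tumours, with 5 of 9 higher and 4 lower, and the adipocyte hormone gene Adipoq had 4.10, 4.13 and 4.27 in white adipose and 4.14 in each of the 3 non-adipose tumours. Leukocyte markers averaged 8.47 to 8.75 in white adipose and 8.46 to 8.91 in non-adipose tumours, and those of brown adipocytes, and of endothelium and fibroblasts, had 3 higher of 6 and 4 higher of 7. Colorectal epithelial markers averaged 6.05 to 6.21 in white adipose and 6.07 to 6.11 in non-adipose tumours, and 6 of the 11 had a higher mean, 5 a lower one. The files hold no detection calls, so which of these markers were expressed was not determined. In bulk tumour RNA, fewer cells of a type and less RNA per cell cannot be told apart. The part of these other cell types in the values below was not tested.

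Complex I subunit genes had nearly equal signals at both sites. Of the 32 subunits, 17 had a higher mean and 15 a lower mean in white adipose tumours, against 49.7% higher and 50.3% lower among all genes. Their median difference was 0.016 on the log2 scale, a 1.01-fold ratio, against -0.00043 over all genes tested, and the single differences ran from -0.21 for Ndufb11 to 0.16 for Ndufa11. None passed the adjusted threshold, and none had an unadjusted p under 0.05. Adjusted p-values of all 42 genes lay between 0.936 and 0.9995. Groups of arrays did not overlap for 1 subunit, Ndufa11, which was higher, where 3.34% of all genes were higher and 3.97% lower without overlap.

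Each interval limits the difference in 1 gene's deposited signal, not in all subunits jointly. The 95% confidence interval of every one of the 32 subunits lay within a 1.5-fold difference in either direction, as did those of 86.1% of all genes. The widest reached 1.42-fold, for Ndufb11. In 24 of the 32 subunits the measured difference was smaller than 0.1 in size, as it was in 13390 of the 22180 genes tested. A ratio of 1.41-fold could be missed. On simulated arrays of the same size, with independent noise and 200 changed genes, 34.2% of 1.41-fold changes were recovered, against 90% of 2-fold changes. Recovery among the subunits was not simulated: their median standard error was 0.079, against 0.097 over all genes. No gene was called here, unlike in the simulation, so these shares need not hold for these arrays. Subunit signals also varied little from array to array, with a median SD over the 6 arrays of 0.093, against 0.128 over all genes tested. Related lists had this too. The median SD was 0.081 in complexes III, IV and ATP synthase and 0.092 in complex II. It was 0.098 in the Ndufaf assembly factors and 0.072 in assembly factors with other names. With 1 array left out, the median difference ran from 0.00019 without non-adipose replicate 3 to 0.038 without non-adipose replicate 2.

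**Figure D1:**
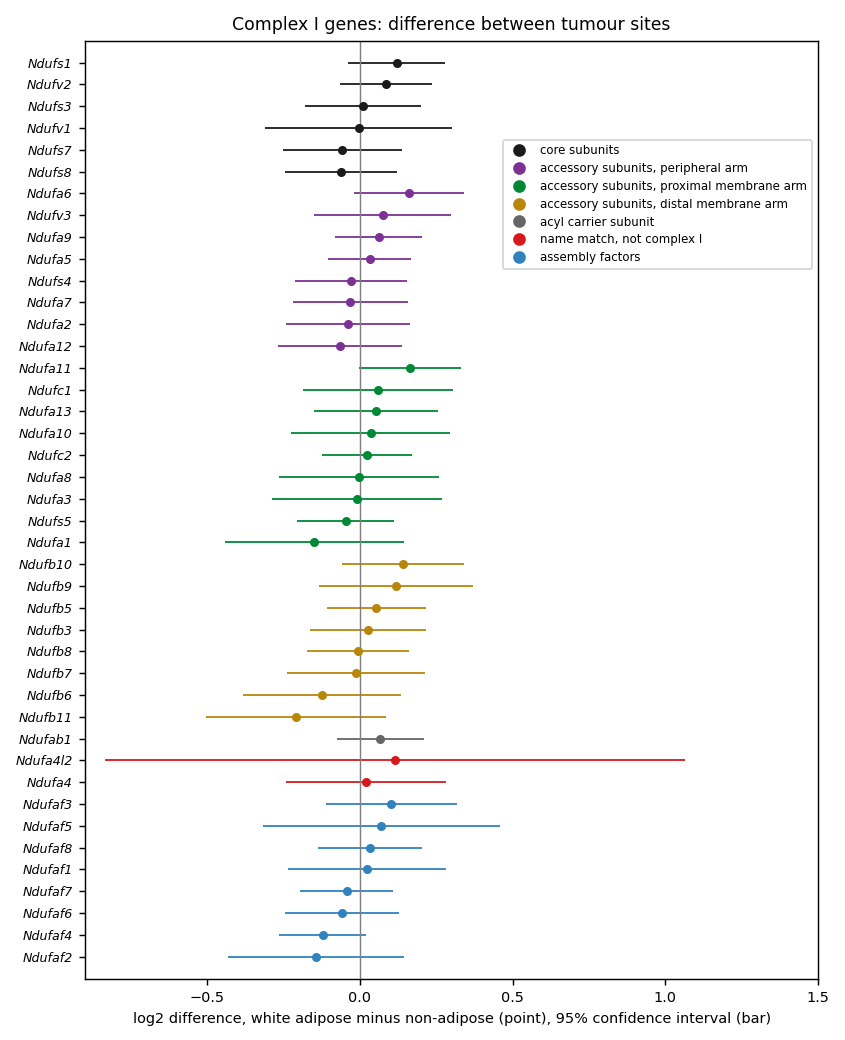
Log2 difference between white adipose and non-adipose tumours for each of the 42 genes (points), with limma's 95% confidence interval (bars), 3 arrays per site. Colours mark the groups of genes; every interval includes 0, the subunits lie between -0.21 and 0.16, and the wide interval belongs to Ndufa4l2.

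Promoter letters were compared next, which the symbol rule did not use. RefSeq windows of 300 bases on GRCm38.p6, from 250 bases before to 50 after the annotated start, were at hand for 37 of the 42 genes, as 39 windows. The NRF1 motif, spelled as GCGCA, any base and GCGC, and like the others searched on both strands, was in 8 of the 39 windows (20.5%, 7 genes), against 6.48% of the windows of all genes tested. Both windows of Ndufa5 overlap and hold the same site, which was therefore counted again. By gene, 7 of 37 had a match, against 1229 of 16918 among all genes tested that had a window. NRF1 is nuclear respiratory factor 1, a transcription factor known for binding promoters of respiratory chain genes. The motif AAGATGGCG of YY1, a zinc finger transcription factor, was in 5 windows (12.8%), against 1.86%, and in all 5 (Ndufc1, Ndufa9, Ndufs7, Ndufaf8 and Ndufs4) it began 11 to 36 bases after the start. The ETS motif CCGGAAG was in 15.4% of the member windows against 11.4%. Over all member windows together, common promoter motifs had shares near or below those of all genes tested. CCAAT was in 28.2% against 37.7%, TATAAA in 12.8% against 12.3%, and CACGTG in 7.69% against 8.10%. Taken apart, CCAAT was in 7 of 31 subunit windows (22.6%) and in 4 of 7 assembly factor windows (57.1%). Member windows were slightly richer in G and C, with a median of 59.3% against 56.7%, and the part of base composition in these shares was not tested.

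Printed here are the 150 bases upstream of the start for the 5 genes whose NRF1 match lies before it, since they include both genes whose arrays did not overlap (Ndufa11 and Ndufaf4), and for Ndufb11, the subunit with the lowest difference, whose window holds no NRF1 match but 4 CCAAT matches. Capitals mark the NRF1 match in the first 5 and the CCAAT matches (ATTGG on this strand) in Ndufb11. Positions are on GRCm38.p6, from RefSeq, and each sequence reads 5′ to 3′ along the gene.
Ndufa11, chr17:56717612-56717761, plus strand: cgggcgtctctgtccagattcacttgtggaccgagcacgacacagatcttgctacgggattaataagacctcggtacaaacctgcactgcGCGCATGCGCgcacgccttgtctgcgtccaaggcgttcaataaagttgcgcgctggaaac
Ndufaf4, chr4:24897933-24898082, plus strand: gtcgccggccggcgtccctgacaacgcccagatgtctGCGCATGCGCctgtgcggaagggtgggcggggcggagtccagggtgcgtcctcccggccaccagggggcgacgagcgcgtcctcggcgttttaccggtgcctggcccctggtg
Ndufa8, chr2:36049339-36049488, minus strand: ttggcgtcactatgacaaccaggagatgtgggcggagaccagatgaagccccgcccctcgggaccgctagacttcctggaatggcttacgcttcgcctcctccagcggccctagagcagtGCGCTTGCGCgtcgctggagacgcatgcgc
Ndufs5, chr4:123718187-123718336, minus strand: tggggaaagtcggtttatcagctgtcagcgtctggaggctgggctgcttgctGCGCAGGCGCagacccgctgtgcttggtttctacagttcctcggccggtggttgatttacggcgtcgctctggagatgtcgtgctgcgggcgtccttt
Ndufa5, chr6:24527691-24527840, minus strand: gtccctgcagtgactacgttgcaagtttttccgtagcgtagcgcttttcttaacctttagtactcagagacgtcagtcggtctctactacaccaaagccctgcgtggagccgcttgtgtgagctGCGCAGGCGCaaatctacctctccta
Ndufb11, chrX:20617620-20617769, minus strand: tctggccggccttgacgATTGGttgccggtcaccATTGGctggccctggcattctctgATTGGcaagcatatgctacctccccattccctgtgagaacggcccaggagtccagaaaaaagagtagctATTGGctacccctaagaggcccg

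The 7 genes with an NRF1 match did not share a direction. They had 4 higher and 3 lower means in white adipose tumours, with differences from -0.12 (Ndufaf4) to 0.16 (Ndufa11) and a median of 0.032, against a median of 0.015 over the 30 genes with a window and no match. In the other 2 of the 7, Ndufa6 and Ndufaf5, the match began 24 and 17 bases after the start.

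The core subunits that take up NADH were close in level at the 2 sites. Ndufv1, which binds NADH and the flavin, had signals of 8.87, 8.58 and 8.43 in white adipose tumours, against 8.73, 8.63 and 8.54 in non-adipose tumours. The white adipose values spanned the non-adipose ones, and the difference of -0.0047 (SE 0.13) changed sign with the array left out, from -0.13 (white adipose replicate 1 omitted) to 0.096 (replicate 3 omitted). It was 0.017 without white adipose replicate 2, 0.043 without non-adipose replicate 1 and 0.016 after quantile normalization. Ndufv2, the iron-sulfur partner of Ndufv1, had 9.02, 9.08 and 9.16 in white adipose and 8.98, 9.02 and 9.01 in non-adipose tumours, a difference of 0.084 (SE 0.062), or 0.048 without white adipose replicate 3. The groups met at 9.02. Ndufs1, the largest subunit and carrier of several iron-sulfur clusters, was at 8.52, 8.48 and 8.53 in white adipose and 8.48, 8.32 and 8.38 in non-adipose tumours. Its groups touched at 8.48, and the difference of 0.12 (SE 0.065; 1.09-fold) was the largest among the core subunits, at an unadjusted p of 0.114 and an adjusted p of 0.936 in limma. A dimmer probe set that names both Ndufs1 and Ino80dos, left out by the rule of 1 symbol, differed by 0.29. There the groups did not overlap: the lowest white adipose value was 6.314 and the highest non-adipose value 6.279. The part of Ino80dos in that signal was not tested.

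Core subunits of the ubiquinone-reducing part were equally close. Ndufs7, which holds the last iron-sulfur cluster before ubiquinone, had 9.34, 9.37 and 9.24 in white adipose and 9.27, 9.49 and 9.37 in non-adipose tumours. Its difference was -0.057 (SE 0.080), and 0.00058 without non-adipose replicate 2, the highest array. Ndufs8, another iron-sulfur subunit, was at 9.11, 9.09 and 9.05 in white adipose and 9.27, 9.13 and 9.04 in non-adipose tumours, a difference of -0.063 (SE 0.075) that ran from -0.115 without non-adipose replicate 3 to -0.0018 without non-adipose replicate 1. Ndufs3, which has no redox centre, had 6.79, 6.64 and 6.55 in white adipose and 6.62, 6.64 and 6.69 in non-adipose tumours. Its difference of 0.0099 (SE 0.078) became -0.055 without white adipose replicate 1, -0.0036 without non-adipose replicate 1 and -0.031 with array weights. Over the 6 core subunits measured, 3 were higher and 3 lower, with a median of 0.0026. The 7 mitochondrially encoded core subunits were not analysed here.

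**Figure D2:**
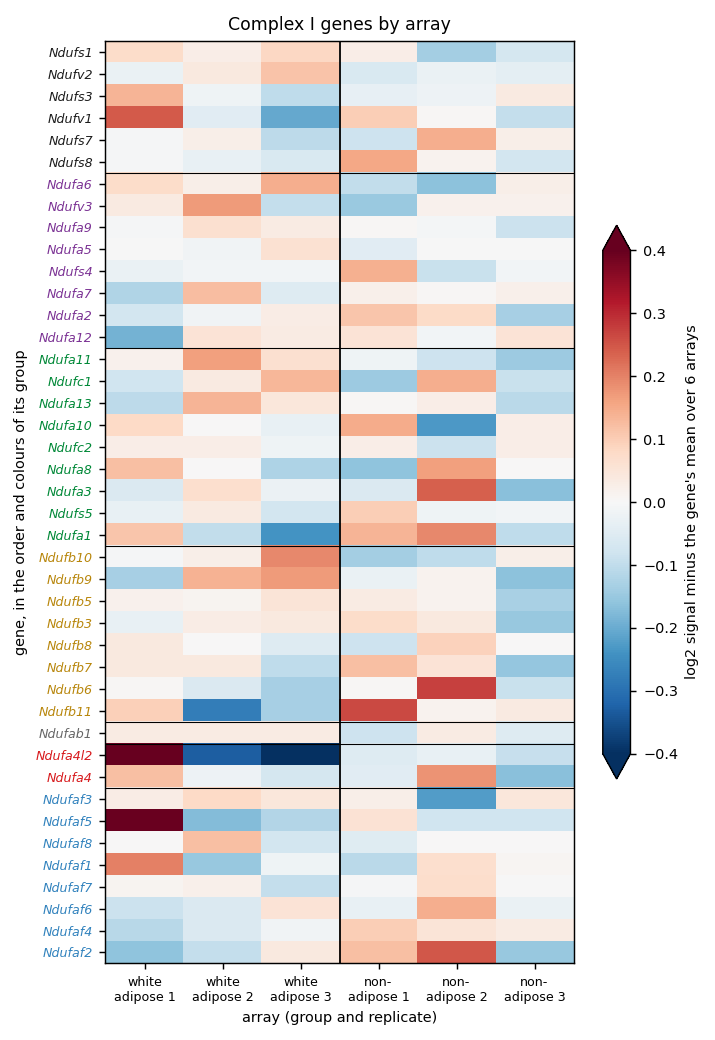
Log2 signal of each gene minus its own mean over the 6 arrays, with arrays as columns (3 white adipose, then 3 non-adipose) and genes as rows, grouped and coloured as core, accessory and acyl carrier subunits, name matches and assembly factors. No group of rows changes colour at the line between the sites; the darkest cells are Ndufaf5 in white adipose replicate 1 and Ndufa4l2, which in white adipose replicates 1 and 3 lie beyond the scale's ends at -0.4 and 0.4.

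Accessory subunits of the peripheral arm held 4 higher and 4 lower members of 8 measured, with a median of 0.00042. The one with the largest difference was Ndufa6, a small LYR-motif subunit that docks an acyl carrier protein on the arm. It had 8.52, 8.47 and 8.59 in white adipose and 8.35, 8.28 and 8.47 in non-adipose tumours. The lowest white adipose array and the highest non-adipose array were level, and the difference was 0.16 (SE 0.074; 1.12-fold; unadjusted p 0.0707). Ndufv3, a small subunit bound near the flavin, was at 7.68, 7.82 and 7.55 in white adipose and 7.50, 7.66 and 7.66 in non-adipose tumours, a difference of 0.075 (SE 0.092) that was 0.0079 without white adipose replicate 2, 0.14 without replicate 3 of that site and 0.020 without non-adipose replicate 1. On the other side, Ndufa12 had 7.49, 7.73 and 7.71 in white adipose and 7.73, 7.67 and 7.73 in non-adipose tumours. Only white adipose replicate 1 was low for Ndufa12, and without it the difference of -0.067 (SE 0.084) was 0.011. It was -0.11 without white adipose replicate 2.

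In the proximal membrane arm, 5 of 9 accessory subunits had a higher mean and 4 a lower mean, with a median of 0.023. Ndufa11, which sits at the junction with complex III in supercomplexes, had 8.54, 8.69 and 8.59 in white adipose and 8.50, 8.44 and 8.38 in non-adipose tumours. All 3 white adipose arrays were above all 3 non-adipose arrays, by 0.16 on average (SE 0.069; 1.12-fold), with an unadjusted p of 0.0542 and an adjusted p of 0.936 in limma. A second, dimmer probe set of Ndufa11 did not share this order: it had 5.33, 5.77 and 5.76 in white adipose and 5.81, 5.67 and 5.54 in non-adipose tumours, a difference of -0.050, and the mean of both probe sets differed by 0.057. Ndufa1, a membrane subunit encoded on the X chromosome, was at 8.08, 7.87 and 7.73 in white adipose and 8.10, 8.16 and 7.87 in non-adipose tumours. Those groups overlapped, with a difference of -0.15 (SE 0.12), or -0.24 and -0.067 when white adipose replicates 1 and 3 were left out in turn and -0.091 and -0.24 when non-adipose replicates 2 and 3 were. Ndufs5, which faces the intermembrane space, had 5.12, 5.19 and 5.08 in white adipose and 5.25, 5.13 and 5.14 in non-adipose tumours, a difference of -0.046 (SE 0.065). It ran from -0.076 without white adipose replicate 2 to -0.0081 without non-adipose replicate 1, and was -0.020 without white adipose replicate 3. A brighter probe set that also names Ndufs5-ps, left out by the rule of 1 symbol, differed by 0.044.

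The distal membrane arm, the far end of the proton-pumping arm, held both the subunit with the lowest difference and some of the highest, and 4 of its 8 measured accessory subunits were on each side. Ndufb10 had 7.04, 7.07 and 7.24 in white adipose and 6.91, 6.95 and 7.07 in non-adipose tumours, and the groups overlapped, since white adipose replicate 1 lay below non-adipose replicate 3. The difference was 0.14 (SE 0.082; 1.10-fold), and 0.080 without white adipose replicate 3. Ndufb9, another LYR-motif subunit that docks an acyl carrier protein, was at 10.62, 10.90 and 10.93 in white adipose and 10.73, 10.77 and 10.59 in non-adipose tumours, a difference of 0.12 (SE 0.10), or 0.21, 0.077 and 0.062 when white adipose replicates 1, 2 and 3 were left out in turn and 0.065 without non-adipose replicate 3. Ndufb11, the other X-linked subunit, had 5.79, 5.42 and 5.56 in white adipose and 5.96, 5.71 and 5.73 in non-adipose tumours. Of its white adipose arrays, replicate 1 lay among the non-adipose ones, and the difference was -0.21 (SE 0.12; 1.16-fold lower; unadjusted p 0.132), -0.31 without that array and -0.12 without white adipose replicate 2. Leaving out non-adipose replicate 1 gave -0.13. Ndufb6 was at 7.37, 7.31 and 7.24 in white adipose and 7.37, 7.64 and 7.28 in non-adipose tumours. One high array, non-adipose replicate 2, carried most of its difference of -0.12 (SE 0.11), which was -0.020 without it and -0.20 without non-adipose replicate 3.

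The other 16 subunits differed by -0.038 (Ndufa2) to 0.067 (Ndufab1), 9 higher and 7 lower, with standard errors of 0.056 to 0.11. Ndufab1, the mitochondrial acyl carrier protein that is bound in both arms and also serves fatty acid synthesis, was listed at the same value of 6.67 in all 3 white adipose arrays, against 6.55, 6.67 and 6.58 in the non-adipose arrays. Ndufs4, whose loss in mice and people gives a severe complex I disease, had 8.20, 8.21 and 8.21 in white adipose and 8.37, 8.14 and 8.21 in non-adipose tumours. Ndufb8, whose protein is often blotted as a sign of assembled complex I, was at 6.96, 6.93 and 6.87 in white adipose and 6.84, 7.02 and 6.93 in non-adipose tumours, a difference of -0.0073 (SE 0.069). Ndufs4 and Ndufb8 were named after their values were seen. Ndufb2, Ndufb4 and Ndufs6 had only probe sets that name other genes too, and were left out.

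One array was low for many subunits. Non-adipose replicate 3 held the lowest value of 10 of the 32 subunits and alone held the highest of none. Among all genes it was lowest in 15.6% and highest in 13.9%. A tied value was counted for 1 array only in these counts. This array shared the highest value for Ndufa12 (7.73) and Ndufc2 (8.91). Its subunits lay at a median of -0.045 from their own means over the arrays, while the other 5 arrays lay between -0.013 and 0.025. The shift was larger for the accessory subunits of the membrane arm, at -0.11 (distal) and -0.089 (proximal), than for those of the peripheral arm, at 0.0086. The same array was lowest in complexes III, IV and ATP synthase, at -0.044, low in proliferation genes, at -0.17, and highest in skeletal muscle markers, at 0.64; the part of these in the subunit values was not tested.

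**Figure D3:**
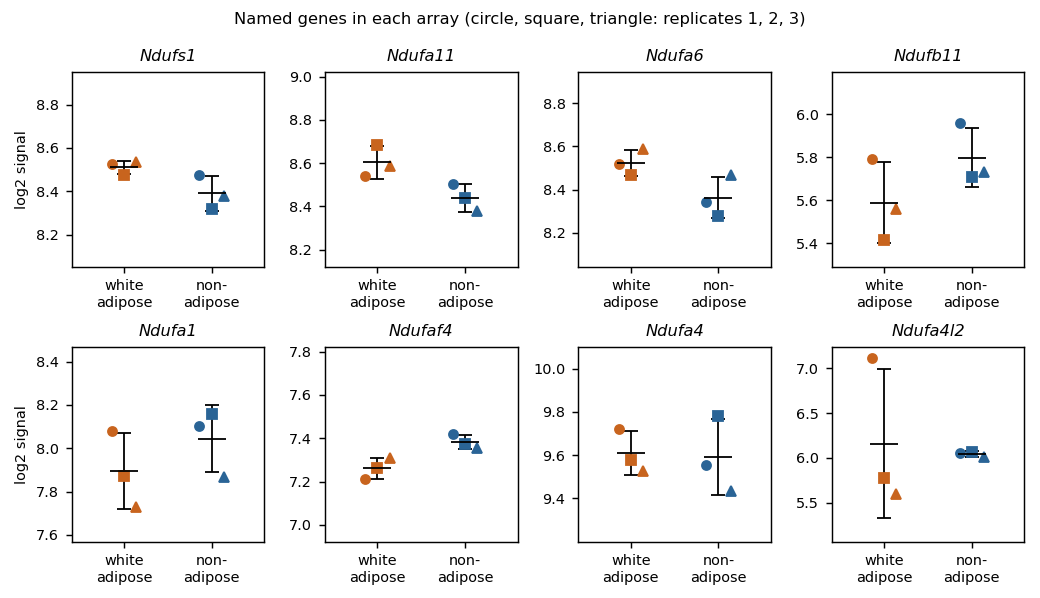
Log2 signal in each array for 8 genes (points; circle, square and triangle are replicates 1, 2 and 3), with the mean and SD of 3 arrays per site (bars). Only Ndufa11 (white adipose higher) and Ndufaf4 (white adipose lower) have groups that do not overlap, and white adipose replicate 1 stands alone for Ndufa4l2 at 7.11.

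Assembly factors were divided evenly, 4 higher and 4 lower of 8 measured, with a median difference of -0.0099. None was at an unadjusted p under 0.05. Without white adipose replicate 1, 2 were higher and 6 lower, with a median of -0.066. Ndufaf4, which works with Ndufaf3 on the ubiquinone module, had 7.21, 7.26 and 7.31 in white adipose and 7.42, 7.38 and 7.36 in non-adipose tumours. Every white adipose array was below every non-adipose array, by 0.12 on average (log2 difference -0.12, SE 0.058; 1.09-fold lower; unadjusted p 0.0785; adjusted p 0.936 in limma), and 3.97% of all genes were lower without overlap. Its partner Ndufaf3 was on the other side, at 7.11, 7.16 and 7.13 in white adipose and 7.11, 6.86 and 7.13 in non-adipose tumours. That difference of 0.10 (SE 0.088) rested on 1 low array and was 0.016 without non-adipose replicate 2.

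Ndufaf2, a paralogue of Ndufa12 that takes its place during assembly, had 5.95, 6.02 and 6.15 in white adipose and 6.23, 6.36 and 5.96 in non-adipose tumours. The difference was -0.14 (SE 0.12), -0.26 without non-adipose replicate 3 and -0.056 without non-adipose replicate 2. Ndufaf5, which modifies Ndufs7, was at 6.51, 5.95 and 6.0 in white adipose and 6.18, 6.04 and 6.04 in non-adipose tumours. Its high value in white adipose replicate 1 set the sign: the difference was 0.069 (SE 0.16) with all arrays, -0.11 without that array and -0.049 with array weights. Ndufaf8, the partner of Ndufaf5, had 7.19, 7.31 and 7.12 in white adipose and 7.14, 7.19 and 7.19 in non-adipose tumours, a difference of 0.032 (SE 0.070), or -0.020 without white adipose replicate 2. Ndufaf6, needed early in assembly, was at 6.02, 6.05 and 6.16 in white adipose and 6.08, 6.25 and 6.08 in non-adipose tumours, a difference of -0.059 (SE 0.077) that was -0.0021 without non-adipose replicate 2, and -0.031 and -0.10 when white adipose replicates 1 and 3 were left out in turn. The remaining pair, Ndufaf1 and Ndufaf7, differed by 0.023 (SE 0.11) and -0.043 (SE 0.062).

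Assembly factors under other names were similar. Of 9 measured, 4 were higher and 5 lower, with a median of -0.031 and none at an unadjusted p under 0.05. Ecsit, a partner of Ndufaf1 in the membrane assembly complex, had 6.40, 6.18 and 6.37 in white adipose and 6.55, 6.48 and 6.41 in non-adipose tumours, a difference of -0.16 (SE 0.084), or -0.090 without white adipose replicate 2. The groups did not overlap, but the highest white adipose and the lowest non-adipose value were 6.404 and 6.405. Dmac1, a distal arm assembly factor, differed by -0.19 (SE 0.088; -0.12 without non-adipose replicate 2), with 8.12, 8.30 and 8.14 in white adipose and 8.36, 8.50 and 8.26 in non-adipose tumours.

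Of the 2 genes that carry the name alone, Ndufa4 was level between sites and Ndufa4l2 was uneven within the white adipose group. Ndufa4, now placed in complex IV, had 9.72, 9.58 and 9.53 in white adipose and 9.56, 9.78 and 9.43 in non-adipose tumours, a difference of 0.020 (SE 0.11) that was -0.036 without white adipose replicate 1, -0.058 without non-adipose replicate 3 and -0.018 with array weights. Ndufa4l2, its hypoxia-inducible paralogue, was at 7.11, 5.77 and 5.60 in white adipose and 6.05, 6.07 and 6.01 in non-adipose tumours. Replicate 1 was far above, and replicates 2 and 3 below, the 3 closely spaced non-adipose arrays. The difference of 0.12 (SE 0.39) was -0.36 without white adipose replicate 1 and -0.19 with array weights. Skin epithelial markers set the same array apart, at a mean of 9.40 against 5.20 to 5.84 in the other 5. Hypoxia genes, at a median of 0.23, -0.51 and -0.16 from their own means in white adipose replicates 1, 2 and 3, were also highest there within the white adipose group, but non-adipose replicate 1 reached 0.29 with Ndufa4l2 at 6.05. The part of either in the Ndufa4l2 values was not tested.

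The other respiratory complexes and the regulators give the setting. Of 8 complex II genes, which pass electrons from succinate to ubiquinone, 7 were higher and 1 lower, with a median of 0.043 and none at an unadjusted p under 0.05. Sdha, the flavoprotein subunit, had 9.69, 9.91 and 9.87 in white adipose and 9.63, 9.75 and 9.69 in non-adipose tumours, and differed by 0.13 (SE 0.079), or 0.19 and 0.085 when white adipose replicates 1 and 2 were left out in turn. Its iron-sulfur partner Sdhb was at 7.72, 7.62 and 7.68 in white adipose and 7.65, 7.56 and 7.45 in non-adipose tumours. That difference was 0.12 (SE 0.072), and 0.070 without non-adipose replicate 3. Of 31 genes of complexes III, IV and ATP synthase, 15 were higher and 16 lower, with a median of -0.0074.

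Regulators of respiratory genes mostly had lower means, 8 of 10, with a median of -0.11 and 2 at an unadjusted p under 0.05, where 2.13% of all genes were lower at that level. One was Nrf1, the gene of the factor whose motif is marked in the promoters above. It had 7.47, 7.35 and 7.31 in white adipose and 7.61, 7.65 and 7.49 in non-adipose tumours. The groups did not overlap, with a difference of -0.20 (SE 0.075; 1.15-fold lower; unadjusted p 0.0348; adjusted p 0.936 in limma). The other was Pprc1, a coactivator of the PGC-1 family, at 8.20, 8.13 and 8.05 in white adipose and 8.53, 8.27 and 8.28 in non-adipose tumours, a difference of -0.23 (SE 0.093; unadjusted p 0.0461) without overlap, or -0.15 without non-adipose replicate 1. The coactivator gene Ppargc1a, named after its values were seen, had a difference of -0.48 (SE 0.30). However, it was dim, at 3.20, 3.33 and 3.33 in white adipose and 3.59, 4.47 and 3.24 in non-adipose tumours. Non-adipose replicate 2 was its only array above 4. The 2 regulators with a higher mean were Esrra, at 0.15 (SE 0.073), and Tfb2m, at 0.13 (SE 0.090). These were also named after their values were seen.

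On the same arrays, most hypoxia and proliferation genes had lower means. Of 13 hypoxia genes, 12 were lower and 1 higher, with a median of -0.28, where 50.3% of all genes were lower. Only 1 was at an unadjusted p under 0.05 in limma, where 2.13% of all genes were lower at that level. This was Hilpda, a lipid droplet protein, at 7.28, 6.98 and 7.26 in white adipose and 7.54, 7.29 and 7.53 in non-adipose tumours, a difference of -0.28 (SE 0.11), or -0.19 without white adipose replicate 2. Car9, a carbonic anhydrase, had 8.86, 7.31 and 8.16 in white adipose and 9.20, 9.06 and 8.47 in non-adipose tumours, a difference of -0.80 (SE 0.41) that was -0.40 without white adipose replicate 2 and -0.41 for the mean of its probe sets. All 13 proliferation genes were lower, with a median of -0.14 and none at an unadjusted p under 0.05. By array, however, the sites overlapped. The median from the genes' own means was 0.038, -0.22 and -0.066 in white adipose and 0.17, 0.18 and -0.17 in non-adipose tumours. Among the 13 genes, the replication gene Mcm3 had 9.09, 9.07 and 9.01 in white adipose and 9.21, 9.26 and 9.15 in non-adipose tumours. Its difference was -0.15 (SE 0.061), without overlap. The mitotic gene Ube2c had 8.82, 8.46 and 8.56 in white adipose and 9.0, 9.22 and 8.68 in non-adipose tumours. Its groups overlapped, with a difference of -0.35 (SE 0.16), or -0.22 without non-adipose replicate 2.

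**Figure D4:**
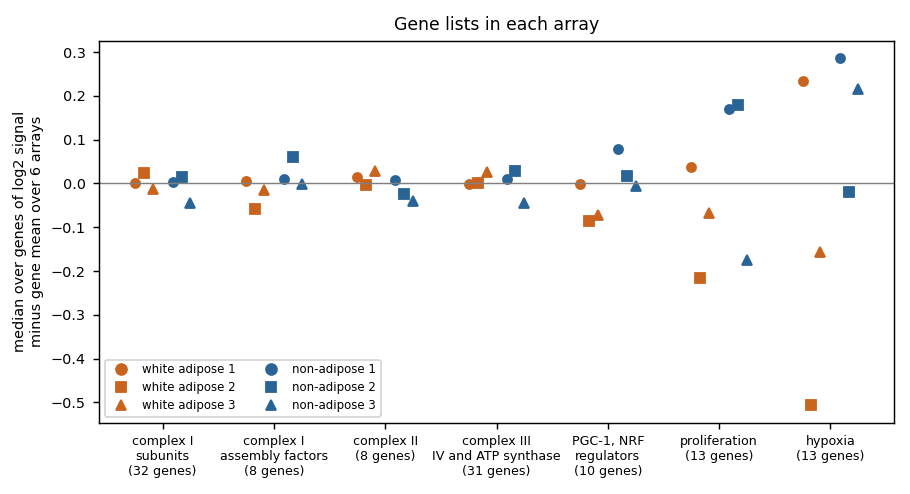
Median over the genes of a list of log2 signal minus the gene's own mean over 6 arrays, for each array (orange, white adipose; blue, non-adipose; circle, square and triangle are replicates 1, 2 and 3). Complex I subunits stay between -0.045 and 0.025 in all 6 arrays, while hypoxia genes run from -0.51 to 0.29 and proliferation genes from -0.22 to 0.18.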

How the data were processed

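The deposited values were a table of log2 signals for 41345 probe sets in 6 columns, 1 per tumour, which ran from 0.973 to 13.6. The log2 scale was read from the values. Per the submitters' processing notes, the software was Affymetrix Expression Console; how background, summarisation and normalization were handled was not given in the sources used here. A normalization that equalises arrays would remove a change shared by most genes. Depth has no meaning for arrays, and the number of arrays limits the precision: the median standard error over all genes was 0.097.

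Probe sets with exactly 1 gene symbol (23521; 1814 had several and 16010 none) were kept, and a gene with several was represented by its brightest on average, which left 22180 genes. White adipose was compared with non-adipose in limma 3.58.1 (R 4.3.3) with lmFit and a plain eBayes, without trend, robust setting or block, with Benjamini-Hochberg adjustment over all genes and a threshold of 0.05. Standard errors and 95% intervals are limma's moderated ones. The fit was tested on simulated data. The members and the gene lists were chosen with earlier results of these data known. Given in full were the core subunits, the 5 other subunits and 3 assembly factors with the largest difference in each direction, any member without overlap or with an unadjusted p under 0.05, the 2 name matches, and the 2 genes with the smallest unadjusted p in each of 5 context lists (assembly factors with other names, complex II, regulators, hypoxia and proliferation). Alternatives changed the normalization, centring, filter, variance model, array weights, probe sets, replicate block and arrays included.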

Additional observations from a re-analysis of the deposited data

How the results depend on the processing

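No gene, subunit or assembly factor passed the threshold under any of the 13 alternatives: without 1 array, the counts ran from 0 to 0. Unadjusted counts did change. Without white adipose replicate 1, 2 subunits were higher and 1 lower at an unadjusted p under 0.05 in limma, as were 819 and 981 of all genes. Array weights gave 1 higher and 1 lower subunit, and 728 and 893 genes. Other alternatives gave at most 1 subunit. For assembly factors, only the fit without non-adipose replicate 3 gave 1, lower. The median difference of the subunits lay between 0.0037 and 0.028 under the 7 settings that kept all arrays, 0.00019 and 0.038 with 1 array left out, and was 0.022 with Ndufa4 and Ndufa4l2 counted as subunits, a choice made after seeing the data. The median of the assembly factors lay between -0.042 and 0.0029 with all arrays, and between -0.066 and 0.015 with 1 array left out. Of 236 values of the 34 named genes under settings with all arrays, 5 changed sign: Ndufv1 (0.016, quantile normalization), and with array weights Ndufs3 (-0.031), Ndufaf5 (-0.049), Ndufa4 (-0.018) and Ndufa4l2 (-0.19). With 1 array left out, 8 genes changed sign. They ran from -0.13 to 0.096 (Ndufv1), -0.055 to 0.064 (Ndufs3), -0.11 to 0.00058 (Ndufs7), -0.11 to 0.011 (Ndufa12), -0.11 to 0.17 (Ndufaf5), -0.020 to 0.076 (Ndufaf8), -0.058 to 0.12 (Ndufa4) and -0.36 to 0.40 (Ndufa4l2). The cause was not tested. Whether same-numbered arrays of the 2 sites shared more than a number was not given in the sources used here. Their deviations from the group means correlated at 0.14, 0.064 and 0.064, against -0.18 to 0.086 between arrays of different number. With the replicate block, 504 genes were higher and 577 lower at an unadjusted p under 0.05 in limma, against 368 and 473 without it. Both fits had 0 past the threshold and the subunit median at 0.016. A pairing or batch behind the numbers was not tested.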

Other observations

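The 42 genes lie on 16 chromosomes, with at most 6 on one (chromosome 17). The 2 X-linked members, Ndufb11 and Ndufa1, had the lowest differences of all 42, at -0.21 and -0.15, whereas 49.8% of the 899 X-linked genes tested were lower, with a median of 0.00052; this was noticed after the values were seen and was not tested.

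Deposited values repeat across arrays. The same value stood in 2 or more of the 6 arrays for 14 of the 32 subunits and 35.3% of all genes, and in 4 arrays for Ndufab1 and Ndufc2. The SD of 0 for Ndufab1 in white adipose tumours comes from such repeats.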
